A study of Homo sapiens with 12 samples.

Results

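The 7 genes described here, KISS1, NME1, CD82, BRMS1, MAP2K4, PEBP1 and ARHGDIB, are genes commonly classed as metastasis suppressors, and they were chosen by gene symbol from the 60558 genes that the tables of both experiments share. Metastasis suppressors are genes whose activity limits the spread of tumor cells to other organs with little effect on growth of the primary tumor. They have no common biochemistry. KISS1 encodes the secreted precursor of kisspeptins, NME1 a nucleoside diphosphate kinase, CD82 a tetraspanin of the plasma membrane and BRMS1 a subunit of SIN3-HDAC corepressor complexes, while MAP2K4 is a kinase that activates JNK and p38, PEBP1 an inhibitor of the RAF-MEK-ERK cascade and ARHGDIB a protein that holds small GTPases in the cytosol.

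RNA-seq had been performed on MDA-MB-231 cells, an established human TNBC line, in 2 experiments that were set up to find transcriptional targets of the NONO and PKM2 proteins. In the NONO experiment, 3 NONO-knockdown libraries were compared with 3 negative control (NC) libraries, and in the PKM2 experiment 3 PKM2-knockdown libraries were compared with 3 NC libraries of their own, so the experiments shared no library. The series design text gives siRNA as the means of knockdown, and the NC cells are labelled as wild type. It is not stated whether the libraries of a group came from separate cultures, so the P values measure only the spread between these libraries, which may be technical.

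Depth was 19861762 to 20981712 estimated counts per library in the NONO experiment and 24097948 to 28455268 in the PKM2 experiment. The targeted genes fell in their own experiments, given in CPM (counts relative to library size after TMM normalization), NONO to 62.7 CPM from 373 CPM (log2 fold change -2.57, SE 0.05) and PKM, the gene that encodes PKM2, to 227 CPM from 2270 CPM (log2 fold change -3.32, SE 0.05). Farthest from their replicates were NC library 1 of the NONO experiment and knockdown library 3 of the PKM2 experiment. VIM, a marker of mesenchymal cells, was abundant in all 12 libraries, whereas CDH1, the epithelial cadherin, had at most 2 counts, ESR1 and PGR at most 11, the leukocyte gene PTPRC at most 5 and the T cell gene CD3E 0 in any library. CD44 and AXL, also read as mesenchymal markers, were abundant as well. ERBB2, which encodes the receptor HER2, was expressed, at 30.8 ± 3.97 TPM in the NC libraries of the NONO experiment. In those of the PKM2 experiment it stood at 26.65 ± 0.338 TPM. EPCAM and PECAM1 had 32 to 78 and 18 to 62 counts in a library. These counts do not show whether other cells were present. In bulk RNA, fewer cells of a kind and less RNA per cell cannot be told apart.

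The promoters are shown first because KISS1 and CD82 fell after both knockdowns, whereas BRMS1 and MAP2K4 had the largest rises after PKM2 knockdown. All 7 genes matched RefSeq promoters (GRCh38.p14). The lines below give, on the strand of the gene and 5′ to 3′, the part of the 250 bases before the RefSeq start that holds no GENCODE 29 exon, for KISS1 at chr1:204196492-204196741 on the minus strand, for CD82 at chr11:44565413-44565590 on the plus strand, for BRMS1 at chr11:66345126-66345354 on the minus strand and for MAP2K4 at chr17:12020627-12020823 on the plus strand. Capitals mark the GC box letters GGGCGG, found on either strand.
KISS1: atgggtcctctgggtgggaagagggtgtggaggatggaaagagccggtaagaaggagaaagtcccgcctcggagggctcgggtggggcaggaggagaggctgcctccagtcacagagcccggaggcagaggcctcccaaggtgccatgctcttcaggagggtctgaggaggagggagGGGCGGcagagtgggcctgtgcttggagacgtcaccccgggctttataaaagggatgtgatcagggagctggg
CD82: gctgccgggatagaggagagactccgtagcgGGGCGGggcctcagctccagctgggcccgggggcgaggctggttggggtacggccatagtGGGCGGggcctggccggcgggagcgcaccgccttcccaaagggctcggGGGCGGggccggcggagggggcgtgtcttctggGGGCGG
BRMS1: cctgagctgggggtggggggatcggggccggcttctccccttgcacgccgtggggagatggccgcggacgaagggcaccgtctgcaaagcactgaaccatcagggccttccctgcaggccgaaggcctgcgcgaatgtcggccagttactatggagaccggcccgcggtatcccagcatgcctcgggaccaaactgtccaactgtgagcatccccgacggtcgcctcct
MAP2K4: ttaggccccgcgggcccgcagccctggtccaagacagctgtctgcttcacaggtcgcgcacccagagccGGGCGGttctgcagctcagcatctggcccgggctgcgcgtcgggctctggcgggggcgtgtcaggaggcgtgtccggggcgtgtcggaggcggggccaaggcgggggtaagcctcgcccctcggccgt

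GC boxes were read over the whole 250 bases, where 42.6% of 35116 RefSeq promoters hold at least 1. The CD82 promoter held 4, that of PEBP1 2, those of KISS1 and MAP2K4 1 each, and those of NME1, BRMS1 and ARHGDIB 0. The letters TATAAA, read on both strands, occurred in the KISS1 promoter, as 2 matches that overlap on opposite strands, and in 10.7% of all promoters. The AP-2 letters GCCNNNGGC occurred once each in the CD82 and BRMS1 promoters and in 19.8% of all promoters. The AP-1 letters TGANTCA occurred in the NME1 promoter and in 6.6% of all. They also occurred in a pair of the 3 ARHGDIB promoters, whose windows overlap and hold the same site. The E-box letters CACGTG were not in any of these windows, against 6.3% of all promoters. KISS1 and CD82, which moved in the same direction, shared GC box letters, which MAP2K4 and PEBP1 also held.

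Levels were compared between genes in TPM, which corrects for transcript length. In the NC libraries of both experiments NME1 was the highest of the 7 genes, at 288 ± 30.4 TPM in the NONO experiment and 334 ± 8.45 TPM in the PKM2 experiment (SD, n = 3 each). It was followed by PEBP1 at 268 ± 8.29 and 275 ± 3.75 TPM, KISS1 at 207 ± 11.4 and 241 ± 6.40 TPM and ARHGDIB at 193 ± 10.5 and 209 ± 3.41 TPM. BRMS1 followed at 66.5 ± 5.45 and 70.9 ± 4.61 TPM, CD82 at 32.5 ± 2.61 and 45.7 ± 2.71 TPM and MAP2K4 at 21.5 ± 0.587 and 20.4 ± 1.62 TPM. Among NC libraries of the NONO experiment the ranges of NME1 and PEBP1, and those of KISS1 and ARHGDIB, overlapped, so these neighbours were not separated beyond their spread. KISS1 was abundant in these cells, ranking 616 by mean TPM among 13860 genes of at least 1 TPM in the NC libraries of the NONO experiment and 541 among 14145 in those of the PKM2 experiment.

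**Figure D1:**
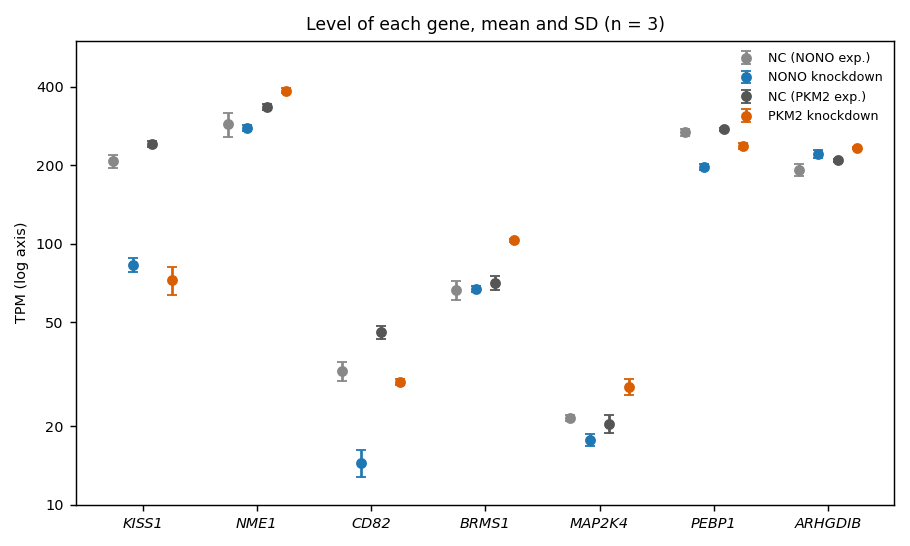
Mean level of each of the 7 genes in TPM (log axis) in the 4 groups, with error bars giving the SD of 3 libraries. KISS1 stood at 207 and 241 TPM in the NC groups and at 82.9 and 72.4 TPM after NONO and PKM2 knockdown, below PEBP1 and ARHGDIB.

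After the knockdowns this order changed. KISS1 went from the third to the fourth place, at 82.9 ± 4.97 TPM, after NONO knockdown, and to the fifth place, at 72.4 ± 8.99 TPM and below BRMS1 at 103 ± 1.48 TPM, after PKM2 knockdown. CD82 was the lowest of the 7 genes after NONO knockdown, at 14.5 ± 1.67 TPM, below MAP2K4 at 17.7 ± 0.950 TPM, and its range overlapped that of MAP2K4 after PKM2 knockdown. The tables of the experiments were normalized separately, so levels were not tested across them.

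Across the 7 members, 5 passed at a Benjamini-Hochberg adjusted P below 0.05 in edgeR's test after NONO knockdown, where 33.4% of all 14832 genes tested did, 17.2% with a fall and 16.2% with a rise. KISS1, CD82, PEBP1 and MAP2K4 fell and ARHGDIB rose. Without 1 library at a time, between 4 and 7 passed, 7 without the first NC library. The CPM of the knockdown and NC libraries did not overlap for these 5 genes, against 46.1% of all genes. After PKM2 knockdown 6 of 7 passed, where 68.4% of all 15524 genes tested did, 34.7% with a fall and 33.6% with a rise, and the groups of the same 6 did not overlap, against 71.9% of all genes. KISS1 and CD82 fell, and NME1, BRMS1, MAP2K4 and ARHGDIB rose. The median log2 fold change of the 7 was -0.20 after NONO and 0.25 after PKM2 knockdown, beside -0.01 over all genes in both experiments. The count after PKM2 knockdown is therefore near the background share of that comparison.

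DEGs were genes that changed more than 2-fold with an unadjusted P below 0.05. KISS1 and CD82 were lowered DEGs after NONO knockdown, where 2.16% of all genes were, and KISS1 was one after PKM2 knockdown, where 13.8% of all genes were. CD82 was close to the cutoff. Its log2 fold change after NONO knockdown was -0.98 without the third NC library and -0.91 without the third NONO-knockdown library, so that it was then no DEG. KISS1 was lowered past this cutoff in both knockdowns, as were 1.14% of 14525 genes tested in both. At an adjusted P below 0.05, KISS1 and CD82 were lowered in both, as were 9.93% of those genes, and ARHGDIB was raised in both, as were 9.34%.

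**Figure D2:**
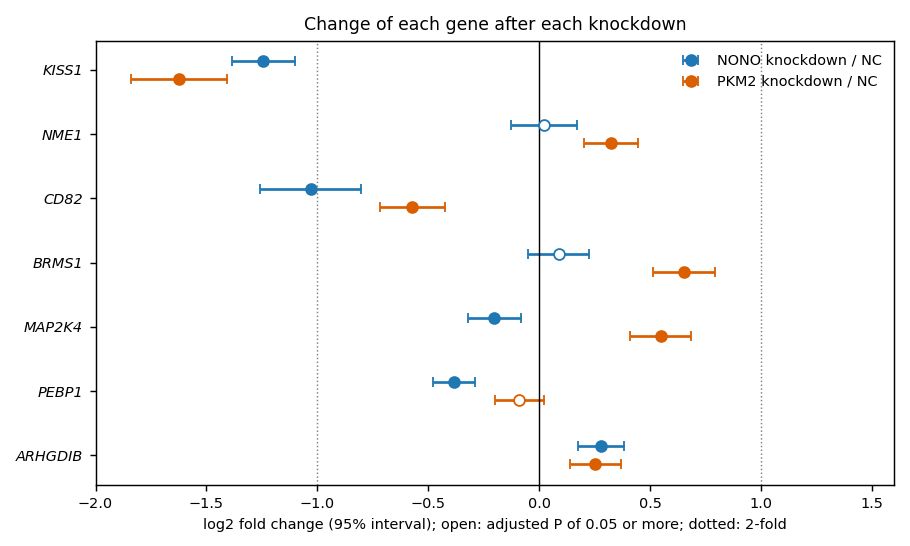
Log2 fold change of each of the 7 genes after NONO and PKM2 knockdown against the NC libraries of the same experiment, with 95% intervals from edgeR (3 libraries a group), open points for an adjusted P of 0.05 or more and dotted lines at a 2-fold change. KISS1 has the lowest values, -1.24 and -1.63, and MAP2K4 lies on opposite sides of 0.

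KISS1 lies on chromosome 1 of GRCh38 from 204190341 to 204196486 on the minus strand in GENCODE 29, with 709 exonic bases, while the tables list a length of 435 bases for it. No 50-base word of its transcripts occurred in a transcript of another gene. Its values in the NONO experiment were 66.6, 62.3 and 60.2 CPM in the NC libraries and 26.2, 25.4 and 28.3 CPM after NONO knockdown. The groups did not overlap, and the fall was 2.37-fold, a log2 fold change of -1.24 (SE 0.07, edgeR quasi-likelihood adjusted P = 3e-07, with Benjamini-Hochberg adjustment over 14832 genes). In the PKM2 experiment the values were 86.5, 79.8 and 86.4 CPM in the NC libraries and 23.3, 26.0 and 32.5 CPM after PKM2 knockdown. These groups did not overlap either, and the fall was 3.09-fold, a log2 fold change of -1.63 (SE 0.10, edgeR adjusted P = 4.44e-08). Leaving out each library in turn gave log2 fold changes from -1.29 to -1.19 in the NONO experiment and from -1.77 to -1.52 in the PKM2 experiment. KISS1 fell further than most genes, since only 168 of 14832 genes tested had a lower log2 fold change after NONO knockdown and 1007 of 15524 after PKM2 knockdown.

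The kisspeptin receptor gene KISS1R had 0 estimated counts in all 12 libraries, which allows up to 3 counts, or 0.105 to 0.151 CPM before TMM scaling, in a library. The ligand gene was thus abundant in these cells while its receptor was not detectable at this depth. Around KISS1, a list of 14 genes for the processing, cleavage, signaling and transcription of the kisspeptin axis held 10 with enough counts to be tested. After NONO knockdown 4 of these 10 rose and 2 fell, with a median log2 fold change of 0.15 beside -0.01 over all genes, of which 33.4% passed. GNAQ, a G protein alpha subunit through which the receptor signals, fell from 39.1 to 42.7 CPM in the NC libraries to 16.9 to 17.2 CPM (log2 fold change -1.27, SE 0.07, edgeR adjusted P = 3.17e-07), whereas its paralog GNA11 rose with a log2 fold change of 0.64 (SE 0.05). MMP14, a membrane metalloproteinase, rose with a log2 fold change of 0.59, and PLCB3, a phospholipase C downstream of these G proteins, with one of 0.25. MMP2 and MMP9, other metalloproteinases, had at most 1 and 4 counts in a library and were not tested.

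After PKM2 knockdown 6 of the 10 genes fell and 2 rose, with a median of -0.24, where 68.4% of all genes passed. TXNIP, a thioredoxin-binding protein known as an upstream regulator of KISS1, fell with a log2 fold change of -1.98 (SE 0.24), although its NC libraries ranged widely, from 73.7 to 161 CPM. FURIN, a protease that cleaves proprotein precursors, fell from 55.0 ± 2.54 to 27.9 ± 0.447 CPM (log2 fold change -0.98, SE 0.06, edgeR adjusted P = 4.4e-08). SP1, a factor that binds GC boxes, fell with a log2 fold change of -0.77, while GNA11 rose with one of 0.82. MMP14 and PLCB3, which rose after NONO knockdown, fell here with ones of -0.27 and -0.28. TXNIP and SP1 did not fall after NONO knockdown, where KISS1 fell as well. TXNIP had a log2 fold change of -0.07 there (edgeR adjusted P = 0.919). SP1 had one of 0.157, a call lost without NC library 2 or NONO-knockdown library 1 or 2, with the replicate block and with limma on TPM. GNAQ, named here after its values were seen, went the other way than after NONO knockdown, with a log2 fold change of 0.49 (edgeR adjusted P = 0.000139, lost with limma on TPM without a filter), and the difference between the knockdowns was 1.75 (SE 0.10, edgeR adjusted P = 4.87e-10).

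CD82 lies on chromosome 11 from 44564427 to 44620363 on the plus strand. An antisense transcript, AC010768.1, overlaps 280 of its exonic bases, 6.91% of them, and the counting is not stated to use strand, so reads there could not be told apart. Its values were 33.2, 35.6 and 37.5 CPM in the NC libraries of the NONO experiment and 19.1, 18.7 and 14.3 CPM after NONO knockdown. Each knockdown library was below each NC library, and the fall was 2.04-fold (log2 fold change -1.03, SE 0.10, edgeR adjusted P = 2.92e-05). In the PKM2 experiment CD82 stood at 50.2, 51.0 and 56.1 CPM in the NC libraries and at 33.1, 36.1 and 36.6 CPM after PKM2 knockdown. This fall was smaller, 1.49-fold (log2 fold change -0.57, SE 0.07, edgeR adjusted P = 1.09e-05), and it was -0.37 once the trend across genes in GC content and transcript length had been subtracted.

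CD82 belongs to the tetraspanins, membrane proteins that gather integrins and other receptors into microdomains. Of 29 tetraspanins and partners of CD82, 23 were tested after NONO knockdown, of which 9 fell, 0 rose and 14 did not pass the test, with a median log2 fold change of -0.20. The background of genes lowered in this comparison was 17.2%. TSPAN7 fell with a log2 fold change of -1.51 (SE 0.23), TSPAN9 with one of -0.65 (SE 0.09), and IGSF8, an immunoglobulin superfamily protein that binds tetraspanins, with one of -0.83 (SE 0.10). PTGFRN, which is related to IGSF8, fell from 5.79 ± 0.236 to 3.33 ± 0.777 CPM (log2 fold change -0.80, SE 0.18, edgeR adjusted P = 0.00612), a call lost with limma on TPM.

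After PKM2 knockdown 17 of 25 genes of that list fell, 4 rose and 4 did not pass, with a median log2 fold change of -0.61, where 34.7% of all genes tested fell. Those that rose include TSPAN2 and TSPAN8, which had enough counts for a test only through the PKM2-knockdown libraries, so their calls are not read as results. The falls of TSPAN1, TSPAN13, TSPAN33 and CD37 rested on few counts. PTGFRN had 101 to 136 counts in the NC libraries and 2 to 11 after PKM2 knockdown (log2 fold change -3.99, SE 0.37, edgeR adjusted P = 1.58e-06). IGSF8 fell from 31.8 ± 0.837 to 9.28 ± 1.06 CPM (log2 fold change -1.77, SE 0.09, edgeR adjusted P = 9.59e-09). TSPAN6 fell with a log2 fold change of -1.49 and TSPAN12 with one of -1.06. The abundant tetraspanins CD9 and CD151 fell with log2 fold changes of -0.73 (SE 0.06) and -0.61 (SE 0.05) after PKM2 knockdown, while CD63, a tetraspanin of endosomes, rose with one of 0.47 (SE 0.05). After NONO knockdown CD9, CD151 and CD63 had values of 0.07, -0.04 and 0.10 and did not pass the test.

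**Figure D3:**
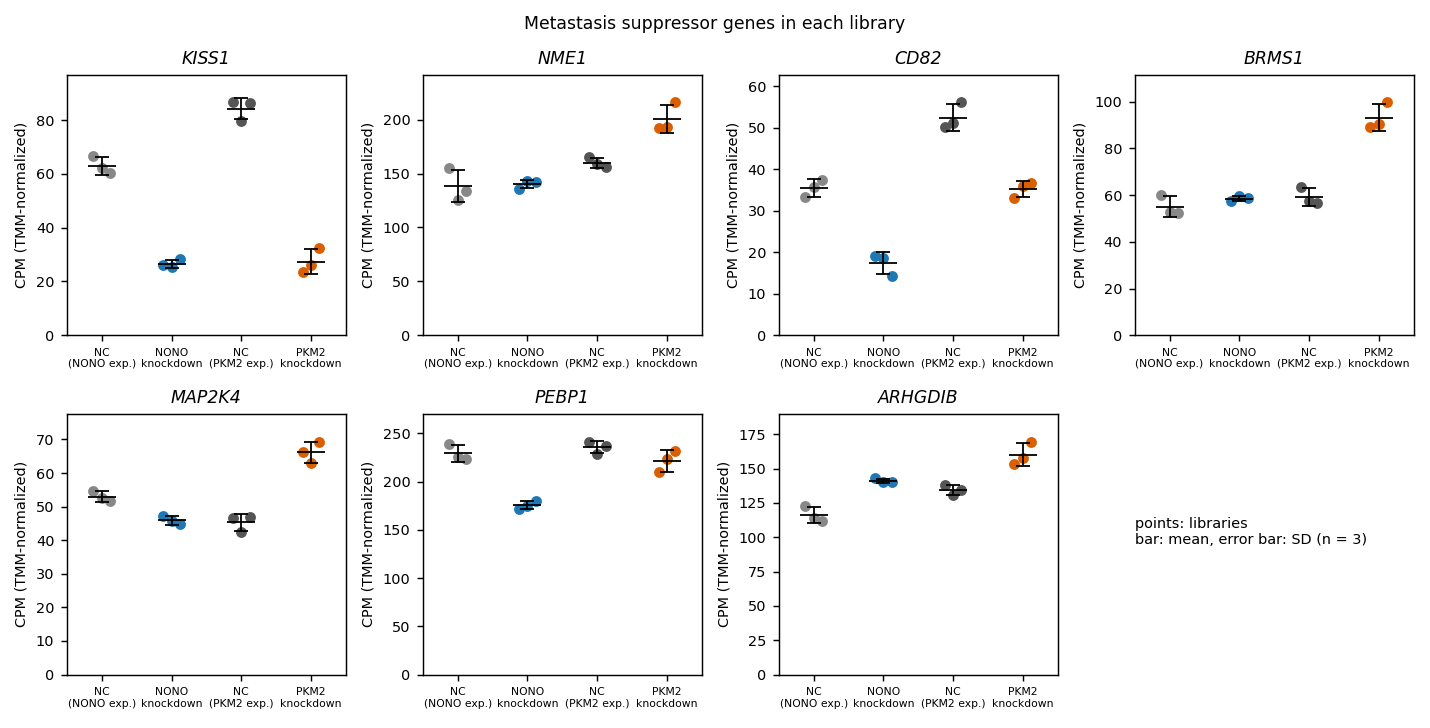
TMM-normalized CPM of each of the 7 genes in each library (points), with the mean and SD of 3 libraries, in the 4 groups, on axes that start at 0. KISS1 and CD82 are lower in all knockdown libraries than in their NC libraries, while BRMS1, MAP2K4 and NME1 are higher after PKM2 knockdown.

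BRMS1 lies on chromosome 11 from 66337333 to 66345125 on the minus strand. Its values were 60.2, 52.7 and 52.2 CPM in the NC libraries of the NONO experiment and 57.2, 59.5 and 58.5 CPM after NONO knockdown, and the groups overlapped because of the first NC library. The log2 fold change was 0.09 (95% interval -0.05 to 0.23, edgeR adjusted P = 0.321). Without that library it was 0.17, with an edgeR adjusted P of 0.0134. In the PKM2 experiment BRMS1 stood at 63.4, 57.6 and 56.6 CPM in the NC libraries and at 89.0, 90.4 and 99.6 CPM after PKM2 knockdown. All 3 knockdown libraries were above all NC libraries, a rise of 1.57-fold (log2 fold change 0.65, SE 0.06, edgeR adjusted P = 2.71e-06).

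The 18 other genes of the SIN3-HDAC complex and its partners were tested in both experiments. After NONO knockdown 4 rose, 0 fell and 14 did not pass, so that 22.2% were called, below the 33.4% of all genes, with a median log2 fold change of 0.06. The deacetylase gene HDAC1 rose with a log2 fold change of 0.35 and RBBP4, a histone-binding subunit, with one of 0.34. SIN3A, the scaffold of the complex, rose with one of 0.16 and RELA, a subunit of NF-κB, with one of 0.13, but the call of SIN3A was lost without the first or the second NONO-knockdown library (highest edgeR adjusted P = 0.0743) and that of RELA without any 1 of 5 libraries, the first NC library being the exception (highest edgeR adjusted P = 0.196), and both calls with limma on TPM. After PKM2 knockdown 7 rose and 7 fell, 77.8% of the list against 68.4% of all genes. HDAC2 fell from 269 ± 4.58 to 130 ± 3.14 CPM (log2 fold change -1.05, SE 0.04, edgeR adjusted P = 2.83e-09), SAP130 with a log2 fold change of -1.02 and BRMS1L, the paralog of BRMS1, with one of -0.87 (SE 0.10). SIN3A had one of -0.18, a call lost under DESeq2, with limma on TPM and without any 1 NC library or PKM2-knockdown library 3. CUL3, the scaffold of an E3 ubiquitin ligase that turns over BRMS1 protein, rose with one of 0.74 (SE 0.06).

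MAP2K4 lies on chromosome 17 from 12020824 to 12143830 on the plus strand, and 4.60% of its 50-base words occurred in its pseudogene MAP2K4P1. Its values were 54.7, 52.4 and 51.6 CPM in the NC libraries of the NONO experiment and 47.3, 45.9 and 44.7 CPM after NONO knockdown. The groups did not overlap, and the log2 fold change was -0.20 (SE 0.05, edgeR adjusted P = 0.0136), but this call was lost without the second (edgeR adjusted P = 0.055) or the third NONO-knockdown library (edgeR adjusted P = 0.0663) and with limma on log2(TPM + 1) without a filter (limma adjusted P = 0.0559). In the PKM2 experiment it stood at 46.6, 42.3 and 47.0 CPM in the NC libraries and at 66.2, 63.1 and 69.3 CPM after PKM2 knockdown. It rose 1.46-fold there (log2 fold change 0.55, SE 0.06, edgeR adjusted P = 9.28e-06). MAP2K4 was thus the member that went in opposite directions after the 2 knockdowns, which 7.97% of 14525 genes tested in both did at an adjusted P below 0.05.

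Of 26 other genes of the JNK and p38 cascade, 25 were tested. After NONO knockdown 7 fell and 3 rose, with a median of -0.04, and after PKM2 knockdown 8 fell and 8 rose, with a median of 0.07. Thus 10 of 25 were called after NONO knockdown, beside 33.4% of all genes, and 64.0% after PKM2 knockdown, beside 68.4%. MAP2K7, the other kinase that activates JNK, rose after both knockdowns, with log2 fold changes of 0.71 (SE 0.05, edgeR adjusted P = 3.92e-06) and 1.02 (SE 0.05, edgeR adjusted P = 7.14e-09). MAPK8IP1, a scaffold of the JNK module, fell after both, with log2 fold changes of -0.44 (SE 0.09) and -2.22 (SE 0.10), the former lost with limma on TPM without a filter. Of the kinases upstream of MAP2K4, after NONO knockdown MAP3K11 fell with a log2 fold change of -0.83, and after PKM2 knockdown MAP3K10 and MAP3K12 fell with ones of -1.11 and -1.07. MAP3K11 had one of 0.15 after PKM2 knockdown (edgeR adjusted P = 0.0354), a call lost without NC library 2 or 3 or PKM2-knockdown library 2 and with limma on TPM, and the difference between the knockdowns was 0.96 (SE 0.08, edgeR adjusted P = 4.27e-08). MAP3K5 rose with one of 0.38 after NONO knockdown, a call lost without the first NONO-knockdown library (edgeR adjusted P = 0.0843) and with limma on TPM. MAP2K3, a kinase that activates p38, fell after NONO knockdown (log2 fold change -0.35) and rose after PKM2 knockdown (0.26).

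PEBP1 lies on chromosome 12 from 118135858 to 118145584 on the plus strand. VSIG10, on the opposite strand, overlaps 169 of its exonic bases, 9.49% of them, and 3.36% of its 50-base words occurred in the pseudogene PEBP1P2. Its values were 239, 225 and 223 CPM in the NC libraries of the NONO experiment and 172, 175 and 180 CPM after NONO knockdown. The groups were well apart, a fall of 1.31-fold (log2 fold change -0.38, SE 0.04, edgeR adjusted P = 7.11e-05). In the PKM2 experiment PEBP1 stood at 241, 229 and 237 CPM in the NC libraries and at 210, 223 and 231 CPM after PKM2 knockdown, and the groups overlapped. The log2 fold change was -0.09 (95% interval -0.20 to 0.02, edgeR adjusted P = 0.135). Without the third knockdown library it was -0.12 and passed (edgeR adjusted P = 0.0212), and on the log2(TPM + 1) scale it was -0.21 (limma adjusted P = 0.00158), where the median of all genes was -0.09.

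Of 17 genes of the RAF-MEK-ERK cascade and the PEBP1 axis, 15 were tested. After NONO knockdown 4 fell and the other 11 did not pass, with a median of -0.09, and after PKM2 knockdown 7 fell and 3 rose, with a median of -0.15. These are 26.7% and 66.7% of the genes tested, against 33.4% and 68.4% of all genes. ARAF, a RAF kinase, fell with one of -1.31 (SE 0.07) after PKM2 knockdown. Its value of -0.17 after NONO knockdown (edgeR adjusted P = 0.0425) did not pass in any of the 7 alternative fits run on all libraries, nor without NC library 2 or 3 or NONO-knockdown library 1 or 2. HMGA2, a chromatin protein, fell with one of -0.38 after NONO knockdown, and GRK2, a kinase that PEBP1 can bind, with one of -0.27, which was lost with limma on TPM. MAP2K1, a MEK kinase, fell with one of -0.16 (edgeR adjusted P = 0.0262), a call lost under DESeq2, with limma on TPM and without NC library 2 or 3 or NONO-knockdown library 2 or 3. After PKM2 knockdown MAPK3, an ERK kinase, fell with one of -0.92, NRAS rose with one of 0.87 and HMGA2 with one of 0.53 (SE 0.06).

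NME1 lies on chromosome 17 from 51153536 to 51162428 on the plus strand. The readthrough gene NME1-NME2 shares 638 of its exonic bases, 18.6% of them, on the same strand, so its counts depend on how reads were split between the 2 genes. Its values were 155, 126 and 134 CPM in the NC libraries of the NONO experiment and 136, 143 and 142 CPM after NONO knockdown, and the groups overlapped. The log2 fold change was 0.02 (95% interval -0.13 to 0.17, edgeR adjusted P = 0.843). It was 0.12 without the first NC library, which had the highest value (edgeR adjusted P = 0.0248), -0.04 without the second NC library and -0.04 with limma on TPM, so no direction is given. In the PKM2 experiment NME1 stood at 165, 159 and 157 CPM in the NC libraries and at 193, 193 and 216 CPM after PKM2 knockdown. It rose 1.25-fold (log2 fold change 0.32, SE 0.06, edgeR adjusted P = 0.00025) with no overlap between the groups.

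NME2, the close paralog of NME1, had log2 fold changes of 0.05 (edgeR adjusted P = 0.41) and -0.01 (edgeR adjusted P = 0.85) and did not pass in either experiment. The readthrough gene, at 4.16 to 15.1 CPM, had log2 fold changes of 0.49 (edgeR adjusted P = 0.0152, at most 0.0777 with 1 library left out) and 0.82 (edgeR adjusted P = 0.00768). Of the 13 other genes of the NME family and partners, 10 were tested after NONO knockdown, where 2 fell and 1 rose, and 11 after PKM2 knockdown, where 3 fell and 5 rose. The shares called, 30.0% and 72.7%, were near the 33.4% and 68.4% of all genes. NME4, the mitochondrial family member, fell from 43.8 ± 1.29 to 12.9 ± 0.410 CPM after PKM2 knockdown (log2 fold change -1.76, SE 0.07, edgeR adjusted P = 1.1e-09), and after NONO knockdown its log2 fold change was -0.23. The latter call was lost without the third NC or the first NONO-knockdown library (highest edgeR adjusted P = 0.0509). KSR1, a scaffold of the ERK cascade that NME1 can phosphorylate, fell with log2 fold changes of -0.74 (SE 0.09) and -1.47 (SE 0.11). NME6 fell with one of -0.67 and NME7 rose with one of 0.50 after PKM2 knockdown, while the 0.22 of NME7 after NONO knockdown was lost without NONO-knockdown library 2 or 3 and with limma on TPM.

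ARHGDIB lies on chromosome 12 from 14942017 to 14961728 on the minus strand. Its values were 123, 114 and 112 CPM in the NC libraries of the NONO experiment and 143, 140 and 140 CPM after NONO knockdown, and 138, 131 and 135 CPM in the NC libraries of the PKM2 experiment and 153, 158 and 170 CPM after PKM2 knockdown. In both experiments each knockdown library was above each NC library. The rises were of similar size, with log2 fold changes of 0.28 (SE 0.05, edgeR adjusted P = 0.000929) and 0.25 (SE 0.05, edgeR adjusted P = 0.00106), although the latter was 0.12 once the trend in GC content and transcript length had been subtracted. The call after NONO knockdown was lost with limma on log2(TPM + 1) without a filter (limma adjusted P = 0.0812). ARHGDIA, its paralog, rose with a log2 fold change of 0.29 (edgeR adjusted P = 8.81e-05) after PKM2 knockdown. Its value of 0.14 after NONO knockdown (edgeR adjusted P = 0.0314) did not pass without any 1 of 5 libraries, the first NC library being the exception (highest edgeR adjusted P = 0.126), nor with the replicate block or limma on TPM. Of 13 GDP-dissociation inhibitors and targets, 11 were tested, of which 4 rose and 1 fell after NONO knockdown and 5 rose and 4 fell after PKM2 knockdown, which is 45.5% and 81.8% called beside 33.4% and 68.4% of all genes. RHOB, a GTPase of endosomes, rose with log2 fold changes of 0.90 (SE 0.12) and 1.67 (SE 0.08), and RAC1, a GTPase of lamellipodia, with 0.59 (SE 0.07) and 0.75 (SE 0.05). After NONO knockdown RAC2 fell with one of -0.32 and CDC42 rose with one of 0.18, the latter lost with limma on TPM. After PKM2 knockdown NMU, a neuropeptide gene known to be repressed by ARHGDIB, fell with one of -2.18 (SE 0.17). Its level was low, at 6.68 ± 0.216 CPM in the NC and 1.47 ± 0.237 CPM in the knockdown libraries. NMU was not called after NONO knockdown, and a link of its level to ARHGDIB was not tested. RAC3 fell after PKM2 knockdown with one of -1.62 (SE 0.09), and CDC42 with one of -0.32.

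An interaction term in an edgeR model of all 12 libraries tested whether the members responded differently to the knockdowns, each relative to its own NC libraries. The difference passed for 6 of 7 members, where 53.1% of all 15995 genes tested passed, 27.4% with a lower and 25.7% with a higher value after PKM2 than after NONO knockdown. It was lower for KISS1 and higher for the other 5. KISS1 fell further after PKM2 knockdown, by a log2 difference of -0.39 (SE 0.13, edgeR adjusted P = 0.0161), which did not pass without the third NC or the third knockdown library of the NONO experiment (edgeR adjusted P = 0.0518 each) and was -0.23 once the trend in GC content and transcript length had been subtracted. CD82 fell less after PKM2 knockdown, by 0.44 (SE 0.12, edgeR adjusted P = 0.00619). The differences of MAP2K4, 0.74 (SE 0.08, edgeR adjusted P = 7.72e-07), and BRMS1, 0.55 (SE 0.09, edgeR adjusted P = 9.96e-05), were the largest. That of NME1 was 0.29 (SE 0.10, edgeR adjusted P = 0.0175), or 0.16 with that trend subtracted, and that of PEBP1 0.28 (SE 0.07, edgeR adjusted P = 0.00252). For ARHGDIB it was -0.04 (95% interval -0.20 to 0.12, edgeR adjusted P = 0.678). The experiments differ in their NC libraries and depth as well as in the targeted gene, and these cannot be told apart in the difference.

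Among 18 further genes classed as metastasis suppressors, 12 were tested after NONO knockdown, where 4 fell and 3 rose, 58.3% beside 33.4% of all genes, with a median log2 fold change of 0.00. LIFR, the receptor of leukemia inhibitory factor, fell from 63.5 ± 4.87 to 32.3 ± 0.803 CPM (log2 fold change -0.97, SE 0.07, edgeR adjusted P = 1.84e-06). GSN, the actin-severing protein gelsolin, fell with a log2 fold change of -0.79 (SE 0.10). NDRG1, a gene induced by stress and hypoxia, rose with one of 0.71 (SE 0.21, edgeR adjusted P = 0.0259), but its first NC library had 153 CPM beside 312 and 334 in the others, and the call was lost under DESeq2, with limma on TPM and without the first or second NONO-knockdown library. After PKM2 knockdown 13 were tested, of which 7 fell and 5 rose, 92.3% beside 68.4% of all genes, with a median of -0.21. Those that rose include KLF17, which had enough counts for a test only through the PKM2-knockdown libraries, so its call is not read as a result. LIFR rose there with a log2 fold change of 0.64 (edgeR adjusted P = 8.95e-07), opposite to its fall after NONO knockdown, and the difference had a 95% interval of 1.42 to 1.78 (edgeR adjusted P = 1.21e-10). NDRG1 fell with one of -0.48 (edgeR adjusted P = 4.47e-05), a call lost with limma on TPM. RECK, an inhibitor of matrix metalloproteinases, fell from 13.1 ± 0.865 to 3.88 ± 0.422 CPM (log2 fold change -1.75, SE 0.12, edgeR adjusted P = 1.3e-07), and GSN with a log2 fold change of -1.21 (SE 0.06). PLAAT4 rose with one of 1.14 (SE 0.26) at a low level of 1.09 ± 0.253 to 2.40 ± 0.290 CPM. MAP2K7, TXNIP and MED23 also stand on this list, and the values of the first pair are given with their pathways above.

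**Figure D4:**
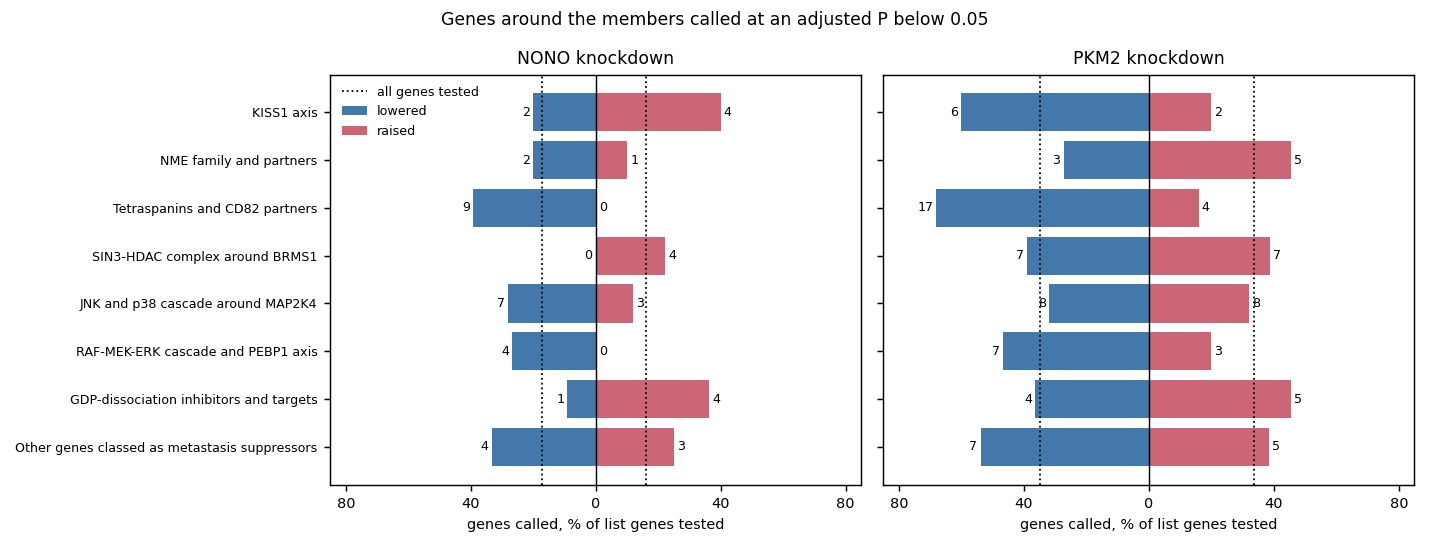
Share of the tested genes of each of the 8 lists that were lowered (blue, to the left) or raised (red, to the right) at an adjusted P below 0.05 after NONO and PKM2 knockdown, with the number of genes at each bar and dotted lines at the share of all genes tested. Of the tetraspanins and partners of CD82, 9 and 17 were lowered and 0 and 4 raised. After PKM2 knockdown the raised genes include TSPAN2 and TSPAN8, and KLF17 among the other metastasis suppressors. These had enough counts for a test only through the knockdown libraries.

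Over the 12 libraries, the genes whose values were most like those of each member were found by Pearson's r of log2 CPM relative to the NC mean of the same experiment, among 13690 genes. The libraries share groups, so r mostly follows the 4 group means and is a description only. KISS1 was most like MPV17L2 (r = 0.993) and NFE2L3 (r = 0.989), and CD82 most like TTLL11 (r = 0.978) and CCDC28B (r = 0.978). BRMS1 was most like POLE3 (r = 0.995) and ADSS (r = 0.991), and MAP2K4 most like NPTN (r = 0.994) and NRBF2 (r = 0.993). For PEBP1 they were TMEM104 (r = 0.984) and PSMA1 (r = 0.982), for NME1 GNL3 (r = 0.985) and RARS (r = 0.979), and for ARHGDIB NABP2 (r = 0.987) and HDGF (r = 0.986). MPV17L2 had log2 fold changes of -0.69 and -0.90, so that it fell less than KISS1 in both experiments.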

How the data were processed

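RNA-seq of 12 MDA-MB-231 libraries was analysed, 3 in each of 4 groups, which were taken with the replicate numbers from the sample labels. Libraries came from poly(A) RNA and were sequenced in paired reads of 150 bases. For each experiment the authors deposited 1 table, which gives every gene an estimated count and a TPM in each library. The submitters' processing notes name fastp, HISAT2, StringTie, RSEM, DESeq2, edgeR and limma and the build hg19, with no role or version. The annotation release, strand setting and handling of multi-mapping reads are not given in the sources used here. The deposited tables also hold the authors' own comparisons (ratio, log2 fold change, p-value and adjusted p-value) and mean TPM, which were not used. Of the columns of single libraries, 0 went unused. The tables hold 60623 and 60671 genes.

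Estimated counts were rounded, filtered with filterByExpr, TMM-normalized and tested with edgeR 4.0.16 (R 4.3.3) by glmQLFit and glmQLFTest, each knockdown against its own NC group, with no replicate block. Calls used a Benjamini-Hochberg adjusted P below 0.05 over all genes tested. CPM are TMM-normalized, and standard errors were derived from the F statistic. Alternatives comprised limma 3.58.1 on log2(TPM + 1) or log2(TPM + 0.1) with a minimum mean TPM of 1, the former also without that minimum, a replicate block, no low-count filter, DESeq2 1.42.0, relative log expression factors, each library left out in turn, and subtraction of bin medians over 20 bins each of GC content and transcript length. The members, gene lists and tests were chosen with earlier results of these data known. Of each list, at most 4 called genes with the largest change and a mean CPM of at least 1 were named per comparison, besides members of the same family, and 1 listed gene is not reported here. Coordinates come from GENCODE 29 on GRCh38, which is not the authors' build, and serve for location only, and promoters come from RefSeq.

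Replicate libraries differed by 2.38 to 13.4 in chi-square per degree of freedom over genes, so no pair was 1 library deposited again. On simulated counts with 200 genes changed 4-fold, edgeR recovered 199 of them in the NONO comparison with 8 false calls among 14662 genes, 200 in the PKM2 comparison with 13 among 15326, and 199 in the difference with 12 among 15630. The simulation gave every gene the same dispersion and changed only genes with a mean CPM of at least 1. It therefore checks that the fits run correctly and does not give the error rates for smaller changes or for the uneven spread of these libraries. The precision is set by 3 libraries a group, where the smallest P of a two-sided exact permutation test is 0.1. Intervals and floors cover counting error or spread between libraries only.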

Additional observations from a re-analysis of the deposited data

Results flagged for a closer look

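The response of 6 of the 7 genes differed between the knockdowns by the interaction test in the edgeR fit over 12 libraries, given as the log2 fold change after PKM2 knockdown minus that after NONO knockdown. The value was -0.39 for KISS1, 0.29 for NME1, 0.44 for CD82, 0.55 for BRMS1, 0.74 for MAP2K4 and 0.28 for PEBP1. KISS1 and CD82 fell in both experiments, by different amounts. The difference of KISS1 did not pass without the third NC or the third knockdown library of the NONO experiment (edgeR adjusted P = 0.0518). MAP2K4 rose after PKM2 knockdown and fell after NONO knockdown. That fall was not called without the second or the third NONO-knockdown library (highest edgeR adjusted P = 0.0663). Over all genes, 53.1% differed by the same test, and targeted gene, NC libraries and depth change together between the experiments and cannot be told apart.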

How the results depend on the processing

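With 3 libraries a group, the direction of KISS1, CD82 and PEBP1 was the same in both experiments under every alternative run. After NONO knockdown 3 members passed with limma on log2(TPM + 1) without a filter, where MAP2K4 (limma adjusted P = 0.0559) and ARHGDIB (limma adjusted P = 0.0812) did not, and leaving out 1 library gave 4 to 7. DEGs among the members numbered 1 to 2 with 1 library left out. The genes of the lists called after NONO knockdown were 47, and 27 under each of the 3 limma settings, with 32 to 61 when 1 library was left out. The log2 fold change of NME1 after NONO knockdown reversed to -0.041 under the 3 limma settings and ranged from -0.037 (without the second NC library) to 0.12 with 1 library left out, and the difference of ARHGDIB ranged from -0.083 to 0.0046, the latter without the third NC library of the NONO experiment. The causes were not tested. Once the trend in GC content and transcript length had been subtracted, KISS1 was -1.43 after PKM2 knockdown. Replicate numbers did not pair the libraries, since the correlations of same-numbered deviations lay between -0.13 and 0.06, and not every library correlated best with its own number. With the replicate block 5 and 6 members passed, as without it, 6 in the difference, and 42, 95 and 85 genes of the lists. Of all the values recomputed, 286 kept their direction and call or moved within the spread. Of the others, 12 were classed as moved, 5 as reversed, 6 as weaker and 6 as stronger. Genes with few counts, KISS1R among them, cannot be resolved at this depth.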

Other observations

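Some genes of the lists had few counts and lay outside the naming rule, and they are given here after their values were seen. KLF17, a zinc finger gene classed as a metastasis suppressor, had 3 to 7 counts in the NC libraries of the PKM2 experiment and 19 to 36.8 after PKM2 knockdown. The tetraspanin genes TSPAN2 and TSPAN8 went from 1 to 6 and from 4 to 5 counts in the NC libraries to 21 to 25 and 14 to 22 counts. KLF17, TSPAN2 and TSPAN8 had enough counts for a test only through the PKM2-knockdown libraries, so no test result is given for them. They are still counted among the raised genes of their lists. Other tetraspanin genes with few counts, TSPAN1, TSPAN13, TSPAN33 and CD37, were lower after PKM2 knockdown. They had at most 37, 36, 55 and 50.05 counts in a library of that experiment. AKAP12, a scaffold protein classed as a metastasis suppressor, had a log2 fold change of 0.31 (edgeR adjusted P = 0.0202) after NONO knockdown. This call was lost without NONO-knockdown library 1 or 2 (highest edgeR adjusted P = 0.1) and with limma on TPM. After PKM2 knockdown AKAP12 fell with one of -1.03 (edgeR adjusted P = 1.07e-07), and the difference was -1.35 (SE 0.13). TPM1, a tropomyosin, went the other way, with -0.19, a call lost under DESeq2 and without NC library 2 or NONO-knockdown library 1 or 2, and 0.63. PGR, the progesterone receptor gene, had 4 to 11 counts in the 6 NC libraries and 0 in all 6 knockdown libraries, which allows up to 3 counts in a library, and was not tested because of its low counts.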
